A study of Caenorhabditis elegans with 12 samples.

Results

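clec-92 and mltn-2 are neighbouring protein-coding genes on chromosome I of the nematode Caenorhabditis elegans. They are 2 of the 46904 genes in the deposited table and were taken by their row, WBGene00013125 for clec-92 and WBGene00013126 for mltn-2. RNA sequencing was done on embryos at a late stage of development, in 5 mutant strains and the wild type, with 2 libraries per genotype and 12 in all. The mutant genotypes were hpl-2, hpl-2 I158A (a point mutation of the same gene), lin-61, the double mutant lin-61 hpl-2, and the triple mutant met-2 set-25 set-32, and N2 was the wild type. The alleles behind these names, and whether each strain is a single isolate, are not stated in the labels. The labels do not say whether the 2 libraries of a genotype came from separate cultures, so their spread may be technical.

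HPL-2 belongs to the HP1 family of heterochromatin proteins, which bind histone H3 methylated at lysine 9, a mark of silenced chromatin. LIN-61, a protein with MBT repeats, binds the same mark, and MET-2 and SET-25 are enzymes that place it. SET-32 is a SET-domain protein that acts in small RNA-guided silencing. clec genes encode proteins with a C-type lectin domain, a fold that in many family members binds carbohydrates; the family is large in nematodes, and many members encode secreted proteins studied in the response to pathogens. mltn genes are named for their relation to mlt-10, which encodes a secreted protein needed for the worm to shed its old cuticle at the molt. For clec-92 and mltn-2 themselves no function is stated here.

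The pair was chosen by its levels in these same 12 libraries, so the levels and differences of both genes are a description and carry no p-value. Values are normalised counts, the number of reads counted for a gene divided by 1 size factor per library, and the whole reads behind them could be recovered. Below, lin-61 hpl-2 is called the double mutant and met-2 set-25 set-32 the triple mutant. In 11 libraries there were 1593546 to 2533102 assigned reads, and replicate 2 of the triple mutant, called the deep library below, had 10243076. In the deep library 3.2% of reads fell in non-coding RNA genes, and in the remaining libraries 14.5% to 17.5%, so results that rest on it are also given without it. Of 14 marker genes of late embryonic tissues, 13 had a normalised count of at least 10 in every library, and 4 sperm markers summed to at most 1.90 in any library. The 14 summed to 21479 and 25023 in the double mutant, 33879 and 33949 in hpl-2 I158A, and 23612 and 33255 in N2. In the other genotypes they summed to 18082 to 29821. The part of embryo stage in differences between genotypes was not tested. Transcripts of hpl-2, in hpl-2 and in the double mutant, and of met-2 and set-25, in the triple mutant, fell (limma adjusted p = 0.0101 or lower). met-2 also fell in hpl-2 I158A, at 112 ± 2.36 normalised counts against 267 ± 0.358 in N2 (SD, n = 2 each; limma adjusted p = 0.0287). Without the deep library met-2 fell in hpl-2 too, at 174 ± 1.71 (limma adjusted p = 0.0155), and in lin-61, at 175 ± 14.8 (limma adjusted p = 0.0280). In that fit set-25 fell in hpl-2, at 275 ± 20.5 against 412 ± 8.25 in N2 (limma adjusted p = 0.00892). hpl-2 itself averaged 263 ± 28.1 normalised counts in hpl-2 I158A and 273 ± 43.3 in N2 (SD, n = 2 each). For lin-61 the test did not pass with all 12 libraries (limma adjusted p = 0.0541 in lin-61 and 0.127 in the double mutant). It passed when the deep library was left out (limma adjusted p = 0.000355 in lin-61 and 0.00493 in the double mutant). set-32 averaged 4.91 ± 2.85 in the triple mutant and 14.9 ± 1.29 in N2 (SD, n = 2 each), a difference that did not pass (limma adjusted p = 0.238).

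On WBcel235, clec-92 spans I, 11015483 to 11017537, on the plus strand, with 4 exons of 703 bases in all. mltn-2 spans I, 11018496 to 11024593, on the minus strand, with 8 exons of 1724 bases. The genes thus point at each other, and 958 bases separate their 3′ ends. The deposited table gives spans of 11015486 to 11017497 for clec-92 and 11018571 to 11025653 for mltn-2, so its gene models are not identical to the annotation used here. No other annotated gene lies within either member on either strand. The strand setting of the authors' counting is not stated in the labels, so sense and antisense reads of a member cannot be told apart. In embryos taken whole, more cells with a transcript and more transcript per cell cannot be told apart either.

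clec-92 was highest in the double mutant. It stood at 134.7 and 104.1 normalised counts in the double-mutant libraries, from 109 and 92 reads, against 3.12 and 0 in the N2 libraries, from 2 and 0 reads. The lin-61 libraries came next, at 40.8 and 34.5 normalised counts, and lay below both double-mutant libraries and above every library of the other genotypes. The triple-mutant libraries were at 22.2 and 6.45 normalised counts, the hpl-2 libraries at 8.56 and 11.5, and the hpl-2 I158A libraries at 8.67 and 1.02. Genotype means ran from 119.4 ± 21.6 in the double mutant through 37.7 ± 4.46 in lin-61, 14.3 ± 11.1 in the triple mutant, 10.04 ± 2.08 in hpl-2 embryos and 4.84 ± 5.41 in hpl-2 I158A to 1.56 ± 2.20 in N2 (SD, n = 2 each). The double mutant did not overlap lin-61 in range, and lin-61 did not overlap the triple mutant. From the triple mutant downward each genotype overlapped the next in range. The hpl-2 and triple-mutant libraries all lay above both N2 libraries, whereas those of hpl-2 I158A did not.

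mltn-2 was also highest in the double mutant. It stood at 56.8 and 66.8 normalised counts in the double-mutant libraries, from 46 and 59 reads, against 3.12 and 0 in the N2 libraries, from 2 and 0 reads. No other library exceeded 7.27 normalised counts. The lin-61 libraries were at 6.13 and 7.27, the triple-mutant libraries at 5.54 and 3.11, the hpl-2 libraries at 1.90 and 3.54, and the hpl-2 I158A libraries at 2.89 and 0. These are 14 reads over both libraries in lin-61, 18 in the triple mutant, 6 in the hpl-2 libraries and 3 in those of hpl-2 I158A. Means were 61.8 ± 7.02 in the double mutant, 6.70 ± 0.808 in lin-61, 4.33 ± 1.72 in the triple mutant, 2.72 ± 1.16 in hpl-2, 1.44 ± 2.04 in hpl-2 I158A and 1.56 ± 2.20 in N2 (SD, n = 2 each). lin-61 lay above the triple mutant without overlap, but the gap between the nearest libraries was less than 1 read was worth in either lin-61 library. Below that each genotype overlapped the next. mltn-2 reached the value of 10 used as a filter, in at least 2 libraries, through the double mutant alone.

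**Figure D1:**
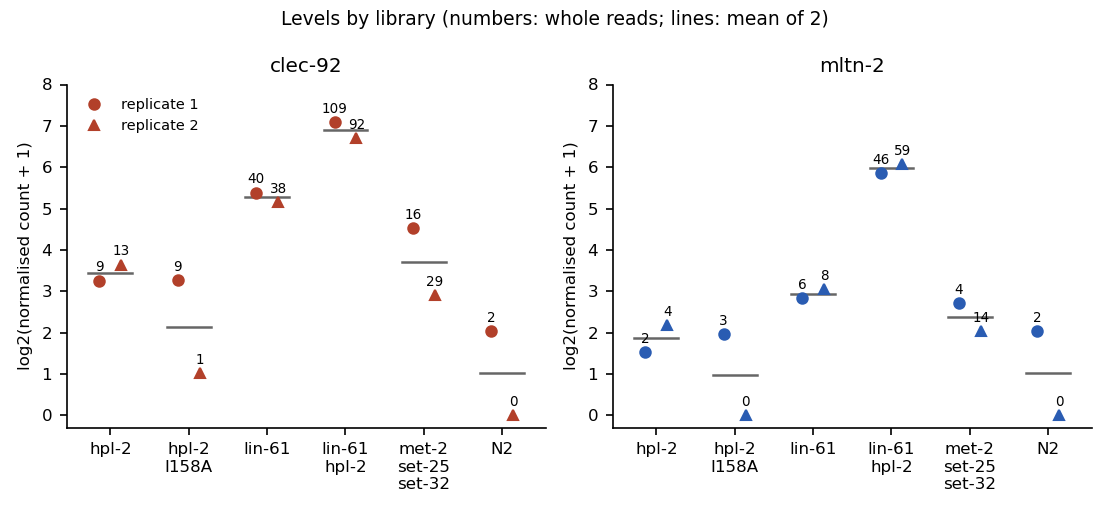
Levels of clec-92 and mltn-2 in each library, as log2(normalised count + 1), with genotypes along the horizontal axis, circles for replicate 1, triangles for replicate 2, a line for the mean of 2 and the whole reads printed above each point. Both genes are highest in the double mutant, clec-92 also stands apart in lin-61, and mltn-2 is within a few reads of 0 in N2, hpl-2 and hpl-2 I158A.

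Since N2 gave 2 reads for each gene over both libraries, a fold against it is known only roughly. The ratio of pooled reads, corrected for depth, was 86.8 for clec-92 in the double mutant over N2, with a 95% exact interval of 23.7 to 722 that covers counting error only. In lin-61 it was 27.4 (7.34 to 230.5), in hpl-2 7.38 (1.81 to 64.7) and in hpl-2 I158A 3.62 (0.772 to 34.0). For mltn-2 the ratio was 45.4 in the double mutant over N2 (12.2 to 379), 4.92 in lin-61 (1.13 to 44.6) and 2.01 in hpl-2 (0.360 to 20.4). In hpl-2 I158A mltn-2 had 3 reads, at the floor, and N2 had 2, below it, so no ratio of that strain over N2 is given. Differences fitted with limma on the log2(normalised count + 1) scale, on which changes of low genes come out too small, were 5.88 (SE 0.858) for clec-92 and 4.95 (SE 0.837) for mltn-2 in the double mutant minus N2. For clec-92 they were 4.25 in lin-61, 2.43 in hpl-2 and 2.70 in the triple mutant, and for mltn-2 1.92, 0.84 and 1.35, with the same SE for each gene. Of the 14640 genes fitted, 1 gene had a larger difference than clec-92 in the double mutant minus N2, and 9 had a larger one than mltn-2. The pair was chosen by these levels, and mltn-2 passed the filter through the double mutant alone, so these ranks are a description. The authors' deposited table gives log2 fold changes of 6.42 for clec-92 and 5.46 for mltn-2 in the double mutant over N2, turned round here from N2 over the mutant. For lin-61 over N2 the authors' deposited table gives 4.75 for clec-92 and 2.25 for mltn-2.

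Comparisons among the mutants rest on more reads. For clec-92, the double mutant stood 3.17 times above lin-61 (2.43 to 4.17) and 11.8 times above hpl-2 (7.56 to 19.2). For mltn-2, it stood 9.21 times above lin-61 (5.25 to 17.4) and 22.5 times above hpl-2 (10.01 to 62.8). In the single mutants set against each other, lin-61 had 3.72 times the clec-92 of hpl-2 (2.29 to 6.27), while for mltn-2 the ratio of 2.45 had an interval of 0.883 to 7.77 that includes 1. These intervals cover counting error only and describe the values by which the pair was chosen.

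**Figure D2:**
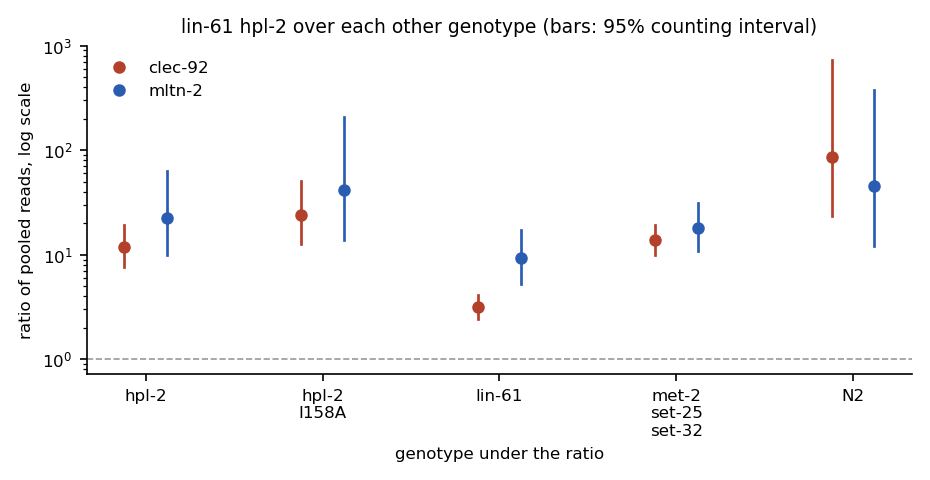
Ratio of depth-corrected pooled reads in the double mutant over each genotype named on the horizontal axis, on a log scale, with red for clec-92, blue for mltn-2 and bars for the 95% exact counting interval; the dashed line marks a ratio of 1. The ratios over lin-61 are 3.17 for clec-92 and 9.21 for mltn-2, and the intervals over N2 are wide because N2 held 2 reads of each gene; the pair was chosen by these levels, so the plot is a description.

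For both genes the increment over N2 in the double mutant was larger than the increments of its single mutants added together. On the scale of normalised counts, clec-92 stood 118 above N2 in the double mutant, against 36.1 in lin-61 and 8.48 in hpl-2. Their sum is 44.6, so the double mutant's increment was 2.64 times that sum. For mltn-2 the increments were 60.2 in the double mutant, 5.14 in lin-61 and 1.17 in hpl-2, and the double mutant's increment was 9.55 times the sum of the single ones. That multiple rests on the N2 libraries: for mltn-2 it was 6.56 without N2 replicate 1 and 18.4 without N2 replicate 2, and for clec-92 2.50 and 2.80. On the log2 scale, the interaction (the double mutant less lin-61 less hpl-2, with N2 added back) was -0.80 (SE 1.21) for clec-92 and 2.19 (SE 1.18) for mltn-2. With N2 at 2 reads these log2 values are imprecise, and the clec-92 value is smaller than its SE.

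The share of clec-92 in the reads of the pair is given with intervals that cover counting error only, as a description. clec-92 gave 65.7% of the pair's 306 reads in the double mutant (95% exact interval 60.1% to 71.0%) and 84.8% of 92 reads in lin-61 (75.8% to 91.4%). In the triple mutant the share was 71.4% of 63 reads (58.7% to 82.1%), in hpl-2 78.6% of 28 reads (59.0% to 91.7%) and in hpl-2 I158A 76.9% of 13 reads (46.2% to 94.96%). N2, with 4 reads of the pair, gives no useful share. Per kilobase of annotated exon, clec-92 averaged 170 ± 30.8 and mltn-2 35.8 ± 4.07 normalised counts in the double mutant (SD, n = 2), and 53.6 ± 6.35 and 3.89 ± 0.469 in lin-61. clec-92 was thus the more abundant of the pair per length in both genotypes.

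In the triple mutant the level of clec-92 depended on the library. Triple-mutant replicate 1 held 16 reads of clec-92, worth 22.2 normalised counts, and replicate 2 held 29 reads, worth 6.45. Pooled over both, the ratio over N2 was 6.31 (1.65 to 53.7). Without replicate 2 it was 16.2 (3.81 to 145.4). The double mutant stood 13.8 times above the triple mutant for clec-92 (9.92 to 19.5) and 17.97 times for mltn-2 (10.8 to 31.5). Without replicate 2 these ratios were 5.35 (3.22 to 9.55) and 11.2 (4.24 to 41.8). For clec-92 the triple mutant stood at 0.230 of lin-61 (0.156 to 0.336), and at 0.591 of it without replicate 2, with an interval of 0.322 to 1.02 that includes 1. The part of this library's differing RNA makeup in these values was not tested.

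The I158A strain and the hpl-2 strain were not separated for either gene. clec-92 in hpl-2 I158A was at 0.491 of its level in hpl-2, with an interval of 0.207 to 1.08, from 10 and 22 reads. mltn-2 was at 0.540 of it (0.0873 to 2.53), from 3 and 6 reads. The 2 hpl-2 I158A libraries differed from each other in clec-92, with 9 reads in replicate 1 and 1 read in replicate 2. Fitted on the log2 scale, clec-92 in hpl-2 I158A minus N2 was 1.12 (SE 0.858), 2.25 without replicate 2 of this strain and -0.01 without replicate 1.

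The genes around the pair were listed with earlier results of these data known. They were compared by limma over all 14640 genes, since they did not enter the choice of the pair. Of 17 annotated genes within 50 kb of its outer ends, 11 passed the filter. In the double mutant none of the 11 was called at an adjusted p under 0.05, where 0.246% of all genes were called higher and 0.0273% lower. In hpl-2 (background 0.28% higher and 0.328% lower), lin-61 (0.0751% and 0.0205%) and the triple mutant (0.123% and 0.205%) none was called either, and edgeR and DESeq2 on whole reads also called none in these 4 comparisons. The number with an unadjusted limma p under 0.05 was 2 in the double mutant, 2 in lin-61, 1 in hpl-2, 1 in the triple mutant and 3 in hpl-2 I158A. Over all genes 9.54%, 9.5%, 15%, 15% and 20% had such a p in these comparisons. The median log2 difference of the 11 was 0.45 in the double mutant, against 0.01 over all genes, -0.01 in lin-61, against 0.02, and -0.33 in hpl-2, against 0.03. It was -0.07 in hpl-2 I158A, against 0.03, and 0.07 in the triple mutant, against -0.01. In hpl-2 I158A 1 of the 11 fell, with a background of 0.908% higher and 3.09% lower. Leaving out either library of the triple mutant made calls more frequent over all genes, replicate 1 as well as the deep library. The fit without the deep library is given here. Then 1 flanking gene rose in the double mutant (background 2.86% higher and 2.16% lower), 1 fell in lin-61 (3.12% and 3.11%), 1 fell in hpl-2 (5.7% and 8.79%), 1 rose and 2 fell in hpl-2 I158A (9.24% and 12.9%), and none was called in the triple mutant (1.74% and 1.73%), then a single library assumed to vary like the others.

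The 3 nearest genes that passed the filter on the clec-92 side were Y52B11A.12, anr-46 and Y52B11A.4, and on the mltn-2 side Y52B11A.8, dxbp-1 and Y52B11A.10. Y52B11A.12 is a protein-coding gene on the strand of clec-92 and ends 737 bases before it. It stood at 95.1 and 93.9 normalised counts in the double-mutant libraries, against 14.02 and 40.2 in the N2 libraries. The lin-61 libraries were at 60.2 and 56.3, the hpl-2 libraries at 37.1 and 45.2, the hpl-2 I158A libraries at 27.0 and 28.5, and the triple-mutant libraries at 33.3 and 18.9. Both genotypes with a lin-61 mutation were thus above both N2 libraries, and the triple mutant was not. Its log2 difference was 1.94 (SE 0.455) in the double mutant and 1.25 (SE 0.455) in lin-61, and neither passed (limma adjusted p = 0.147 and 0.395). Without the deep library the first passed (limma adjusted p = 0.0105) and the second did not (0.0615, limma adjusted p). Genes on the opposite strand, anr-46 among them, cover 73.6% of Y52B11A.12, so its reads cannot be assigned to a strand with certainty. anr-46, an antisense RNA gene that lies within it, averaged 187 ± 19.3 in the double mutant and 138 ± 29.6 in N2 (SD, n = 2 each), with a log2 difference of 0.45 (limma adjusted p = 0.886, not called).

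Y52B11A.4, 11199 bases from clec-92, was at 170 ± 4.46 normalised counts in the double mutant and 181 ± 43.8 in N2 (SD, n = 2 each). On the other side, Y52B11A.8, 7744 bases from mltn-2, was at 116 ± 14.7 in the double mutant and 75.9 ± 0.547 in N2 (limma adjusted p = 0.506), and dxbp-1 at 151 ± 36.6 and 127 ± 2.67 (limma adjusted p = 0.841). In hpl-2 I158A Y52B11A.8 was at 124 ± 19.6 and dxbp-1 at 78.6 ± 8.79. Neither passed with all 12 libraries (limma adjusted p = 0.167 and 0.149). Without the deep library Y52B11A.8 was the gene that rose in hpl-2 I158A, and dxbp-1 was among those that fell. Y52B11A.10, 14462 bases from mltn-2, was the gene that fell in hpl-2 I158A with all 12 libraries. Without the deep library it was also the gene that fell in hpl-2 (limma adjusted p = 0.0176) and in lin-61 (limma adjusted p = 0.0265). It stood at 38.5 and 37.7 normalised counts in the hpl-2 I158A libraries, against 174.5 and 141.4 in the N2 libraries (4.04-fold lower on the log2(value + 1) scale, limma adjusted p = 0.00379), a call that was lost without replicate 1 of hpl-2 I158A or of N2. In the double mutant, where the pair was highest, it averaged 198 ± 35.3, against 157.9 ± 23.4 in N2 (SD, n = 2 each; limma adjusted p = 0.731). In the same hpl-2 I158A libraries 3 oocyte markers summed to 749 and 802 normalised counts, against 245 and 441 in N2, and none of the 3 was at 0 in any library; their part in the hpl-2 I158A calls was not tested.

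**Figure D3:**
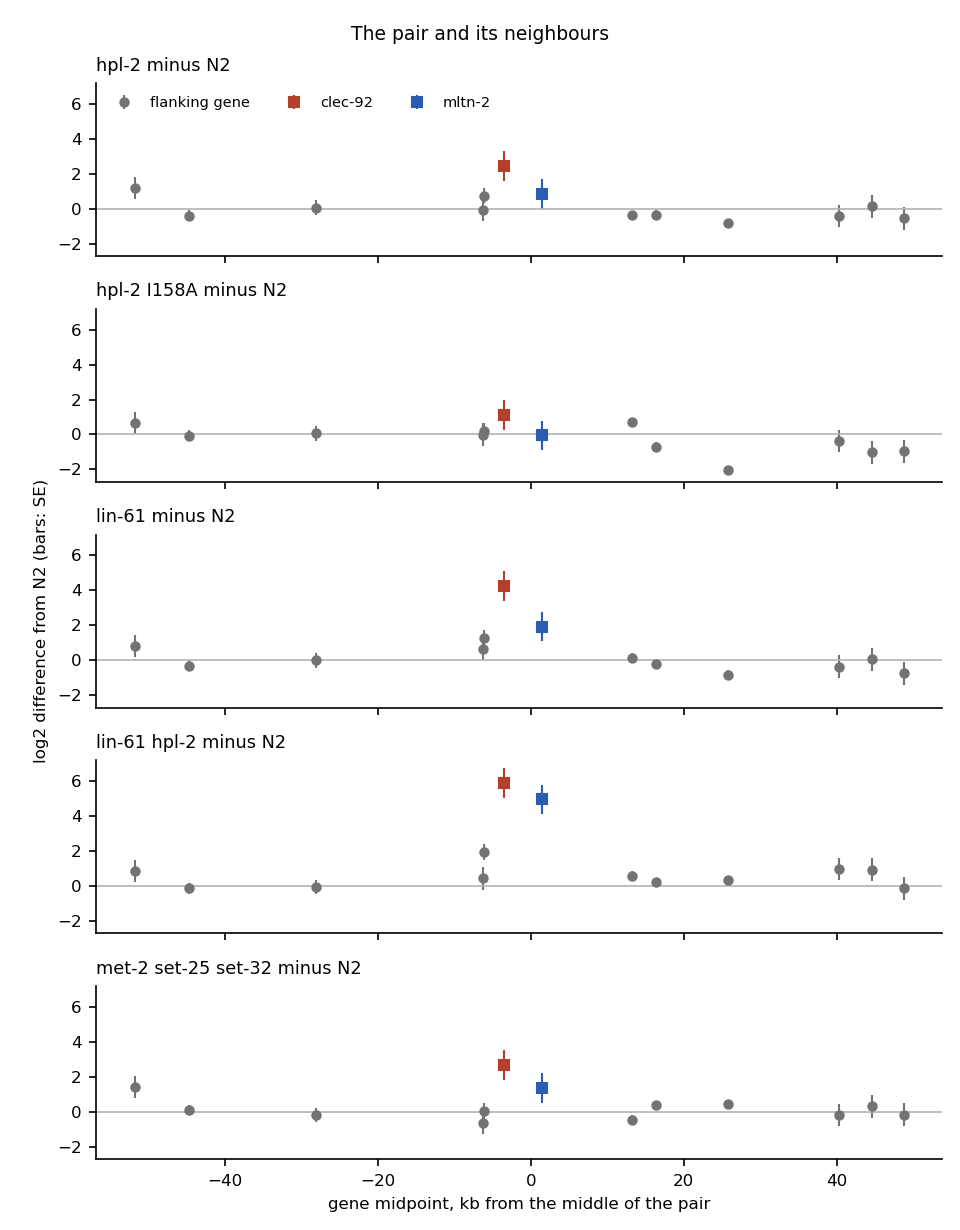
Log2 difference from N2 of the pair and of the 11 flanking genes that passed the filter, by the distance of the gene's midpoint from the middle of the pair in kb, with 1 panel per mutant, squares for clec-92 (red) and mltn-2 (blue), grey circles for the other genes and bars for the SE. In the double mutant the pair stands at 5.88 and 4.95, and the next gene, Y52B11A.12, at 1.94.

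The likeness of patterns was measured as the root mean square difference between 2 genes' log2(normalised count + 1) values over the 12 libraries, each gene centred on its own mean. The pair was chosen by its levels in these libraries, so the rank of each member from the other is a description and not a test. Among 14639 genes the one most like clec-92 was mltn-2, at 0.749. Seen from mltn-2, clec-92 ranked 3 of 14639. Ahead of it came lgc-51, a ligand-gated ion channel gene on chromosome I, at 0.695, and srr-2, a gene of a serpentine receptor family on chromosome V, at 0.726. The other genes most like mltn-2 were Y39B6A.25 at 0.773 and C49A1.1 at 0.809. Outside the double mutant the genotype means of all 4 were at most 8.35 normalised counts. Triple-mutant replicate 1 alone was at 12.5 for srr-2, 11.1 for lgc-51, 9.70 for C49A1.1 and 1.39 for Y39B6A.25. The deep library was at 4.23, 1.11, 1.33 and 0 for these genes. lgc-51 averaged 39.1 normalised counts in the double mutant and 1.39 in N2, srr-2 56.9 and 1.56, C49A1.1 54.2 and 1.997, and Y39B6A.25 18.1 in the double mutant and 0 in N2.

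The other genes most like clec-92 were the pseudogene WBGene00014702 at 0.849, the microRNA gene mir-257 at 0.857, the piRNA gene 21ur-12557 at 0.867 and clec-126, a further C-type lectin gene, at 0.878. With all 12 libraries, all 4 had their highest genotype mean in the double mutant and the next in lin-61. Without the deep library that order held for WBGene00014702 only. Triple-mutant replicate 1 alone was at 31.87 for mir-257, against means of 31.13 in the double mutant and 22.48 in lin-61. It was at 9.70 for clec-126, against 7.83 in lin-61, and at 236.96 for 21ur-12557, against 235.94 in lin-61. clec-126 and 21ur-12557 were still highest in the double mutant. WBGene00014702 averaged 124 normalised counts in the double mutant, 61.4 in lin-61 and 5.55 in N2. 21ur-12557, which lies wholly opposite F40D4.13, averaged 311, 236 and 13.1 in these genotypes. Its reads, and those of mir-257, come from libraries of polyadenylated RNA and need not be the mature small RNA. The same 10 genes, 5 for each member, were the closest when the deep library was left out. These genes were chosen for their likeness, so their values are a description.

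**Figure D4:**
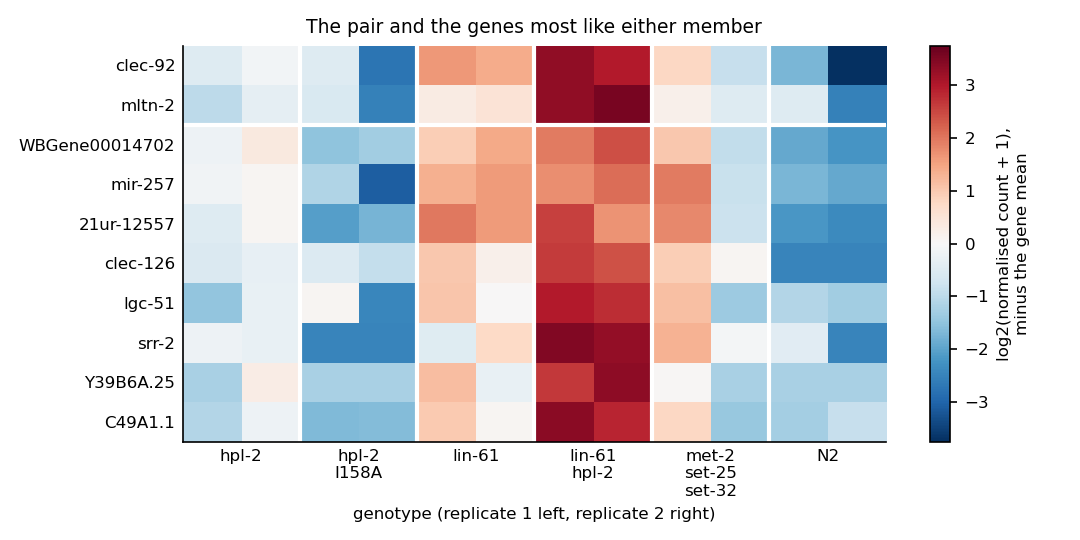
Log2(normalised count + 1) of the pair and of the 8 other genes most like either member, minus each gene's mean, with 2 columns per genotype (replicate 1 left) and red for values above the mean. All 10 genes are above their own mean in both double-mutant libraries; in both lin-61 libraries clec-92, mltn-2 and the 4 others most like clec-92 are above it too, and srr-2 and Y39B6A.25 are below it in 1 lin-61 library each.

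Of 239 other C-type lectin genes, 52 passed the filter. By limma 1 rose and none fell in the double mutant, where 0.246% of all genes were called higher and 0.0273% lower. None was called in lin-61 (0.0751% and 0.0205% of all genes) or the triple mutant (0.123% and 0.205%), where edgeR and DESeq2 called none either. In hpl-2 1 rose (0.28% higher and 0.328% lower over all genes), and in hpl-2 I158A 1 fell (0.908% and 3.09%). At an unadjusted limma p under 0.05 there were 7 of the 52 in the double mutant, 3 in lin-61, 8 in hpl-2, 10 in hpl-2 I158A and 9 in the triple mutant. Over all genes 9.54%, 9.5%, 15%, 20% and 15% had such a p in these comparisons. The median log2 difference of the 52 was 0.39 in the double mutant, 0.07 in lin-61, 0.10 in hpl-2, 0.16 in hpl-2 I158A and -0.30 in the triple mutant, against 0.01, 0.02, 0.03, 0.03 and -0.01 over all genes. Without the deep library, 4 of 52 rose in the double mutant, where 2.86% of all genes did, and 2 in lin-61, where 3.12% did. In the same fit 2 rose and 5 fell in hpl-2 (5.7% and 8.79% of all genes), and 3 rose and 7 fell in hpl-2 I158A (9.24% and 12.9%). The triple mutant is then a single library, assumed to vary like the other genotypes, and 1 gene was called higher and 2 lower in it (1.74% and 1.73%).

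The C-type lectin gene that rose in the double mutant was clec-126 (II, 3519494 to 3520712), the one already met for its likeness to clec-92. It was at 33.4 and 28.3 normalised counts in the double-mutant libraries, from 52 reads, and had no read in either N2 library. This is at least 14.97-fold higher, with N2 put at a floor of 3 reads for both libraries together (limma adjusted p = 0.00627), a call that was lost when either double-mutant library was left out. Without the deep library it also rose in lin-61, at 10.2 and 5.45 normalised counts (limma adjusted p = 0.0136). In the remaining triple-mutant library it was at 9.70 normalised counts, a log2 difference of 3.42 from N2. The others called were clec-10 in hpl-2, at 23.5 ± 5.74 against 0.609 ± 0.862 in N2 (limma adjusted p = 0.0365), and clec-180 in hpl-2 I158A, which fell to 26.0 ± 10.8 against 75.6 ± 20.8 in N2 (SD, n = 2 each; limma adjusted p = 0.0409). Neither was called in the double mutant with all 12 libraries, and both calls depended on the fit: with any 1 library outside the triple mutant left out, 0 C-type lectin genes were called in hpl-2 or hpl-2 I158A. In the double mutant clec-10 averaged 9.57 ± 3.94, and passed without the deep library (limma adjusted p = 0.0337). In lin-61 clec-10 averaged 9.54 ± 1.93, and passed in the same fit (limma adjusted p = 0.0262).

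Of 11 other mltn genes, 5 passed the filter and none was called in any mutant by limma, edgeR or DESeq2. By limma 0.246% of all genes were called higher and 0.0273% lower in the double mutant, 0.0751% and 0.0205% in lin-61, and 0.28% and 0.328% in hpl-2. These shares were 0.908% and 3.09% in hpl-2 I158A and 0.123% and 0.205% in the triple mutant. The number with an unadjusted limma p under 0.05 was 2 in the double mutant, 1 each in hpl-2, lin-61 and the triple mutant, and 0 in hpl-2 I158A. Over all genes 9.54% had such a p in the double mutant, 9.5% in lin-61, 15% in hpl-2 and the triple mutant, and 20% in hpl-2 I158A. The median log2 difference of the 5 was 1.22 in the double mutant, 0.36 in lin-61, 0.54 in hpl-2, 0.06 in hpl-2 I158A and -0.0013 in the triple mutant. In the double mutant mltn-3, mltn-6 and mltn-12 averaged 16.9, 15.1 and 51.7 normalised counts, against 5.21, 5.38 and 21.8 in N2, and mltn-8 and mltn-9 averaged less than in N2. mltn-3 rose in hpl-2 when the deep library was left out, at 19.5 ± 7.48 normalised counts against 5.21 ± 2.97 in N2 (SD, n = 2 each; limma adjusted p = 0.0459). In that fit calls were more frequent over all genes too. None of these 11 had a mean above 51.7 normalised counts in the double mutant except mltn-9, at 58.5 there and 66.8 in N2.

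Of 28 genes of the molting pathway, 26 passed the filter. None was called in the double mutant, lin-61, hpl-2 or the triple mutant by limma, edgeR or DESeq2. By limma 0.246%, 0.0751%, 0.28% and 0.123% of all genes were called higher in these comparisons, and 0.0273%, 0.0205%, 0.328% and 0.205% lower. At an unadjusted limma p under 0.05 there were 7, 3, 3 and 6 (9.54%, 9.5%, 15% and 15% of all genes), and 7 in hpl-2 I158A (20%). In hpl-2 I158A 1 rose and 1 fell, where 0.908% of all genes were called higher and 3.09% lower. lin-42, a period-like gene that times the molts, was at 281 ± 21.7 normalised counts in hpl-2 I158A and 123 ± 53.2 in N2 (limma adjusted p = 0.0476). lrp-1, a receptor of the LDL-receptor family needed for molting, was at 349 ± 30.7 in hpl-2 I158A and 1014 ± 11.4 in N2 (SD, n = 2 each; limma adjusted p = 0.011). Without either hpl-2 I158A library, or without N2 replicate 1, 0 molting genes were called in this strain. mlt-10 itself was at 76.9 normalised counts in the double mutant and 121 in N2. Without the deep library 6 molting genes rose and 4 fell in hpl-2 I158A (9.24% and 12.9% of all genes), 2 fell in lin-61 (3.11%), 2 fell in hpl-2 (8.79%), and 2 were called higher in the single library left of the triple mutant (1.74%). In the double mutant 6 fell and 0 rose, where 2.16% of all genes fell. The median log2 difference of the 26 with all 12 libraries was -0.39 in the double mutant, -0.12 in lin-61, 0.11 in hpl-2, 0.25 in hpl-2 I158A and 0.06 in the triple mutant. The 6 that fell in the double mutant were mlt-11, nhr-25, sym-1, noah-2, ptc-3 and noah-1. The largest difference among them was that of nhr-25, a nuclear receptor needed for molting, at 73.5 ± 27.1 normalised counts in the double mutant and 148 ± 4.30 in N2 (SD, n = 2 each; limma adjusted p = 0.0221 without the deep library and 0.297 with it).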

How the data were processed

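Messenger RNA, selected with oligo(dT) beads per the labels' protocols, was sequenced in 12 libraries of 6 genotypes, grouped by the labels' titles and genotypes. The submitters' processing notes name STAR, featureCounts, DESeq2, WBcel235 and ce11; neither versions nor options are stated. The authors deposited a signal per gene and library, the read count divided by 1 size factor; 100% of values gave whole reads at a tolerance of 1e-06. The authors also deposited a log2 fold change, a p-value and an adjusted p-value per comparison, per the file headers; these p-values were not used.

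The members and gene lists were chosen with earlier results of these data known. limma-trend (limma 3.58.1, R 4.3.3) was fitted to log2(normalised count + 1) over all 12 libraries, with genotype as the only term, for 14640 of 46904 genes (those reaching 10 normalised counts in 2 or more libraries), with Benjamini-Hochberg adjustment and a threshold of 0.05; the fit was tested on simulated data, where small changes were mostly missed. Fold changes on this scale understate low genes, and p-values measure only the spread between these samples. Ratios pool reads per genotype, with exact 95% intervals that cover counting error only; 1 read was worth 1.56 normalised counts in N2 replicate 1. Positions and symbols are from Ensembl 115 on WBcel235 (46817 identifiers matched and 87 did not). The genes named were both members, the 3 nearest genes passing the filter on each side and any called within 50 kb, the 5 most alike per member, and per list up to 5 called genes with the largest difference; mlt-10, nhr-25 with the other molting genes called without the deep library (replicate 2 of the triple mutant), and the measured mltn genes were added after their values were seen. noah-1 is both a molting gene and a late embryo marker. Alternatives were edgeR 4.0.16 and DESeq2 1.42.0 on whole reads, TMM scaling, a pseudocount of 5, no filter, a replicate block, and each library left out.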

Additional observations from a re-analysis of the deposited data

How the results depend on the processing

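Differences are log2, mutant minus N2. With a pseudocount of 5, clec-92 was at 4.28 in lin-61 hpl-2, 2.74 in lin-61, 1.23 in hpl-2 and 1.47 in the triple mutant, and mltn-2 at 3.39 in lin-61 hpl-2 and 0.88 in lin-61. With edgeR and with DESeq2 on whole reads, mltn-2 in hpl-2 I158A was at 0.08, against -0.04. The C-type lectin call in hpl-2 went to 0 with no filter, edgeR, DESeq2 and the replicate block, and that in hpl-2 I158A to 0 with edgeR and the replicate block; with no filter that call was lost too, and 1 gene was called higher in its place. The molting calls in hpl-2 I158A went to 1 with TMM, no filter and edgeR. Leaving out 1 library at a time gave ranges. For clec-92 they were 4.86 to 6.90 in lin-61 hpl-2, 3.23 to 5.27 in lin-61, 1.41 to 3.45 in hpl-2, -0.01 (without hpl-2 I158A replicate 1) to 2.25 in hpl-2 I158A and 1.67 to 3.72 in the triple mutant. For mltn-2 they were 3.93 to 5.97 in lin-61 hpl-2, 0.90 to 2.94 in lin-61, -0.18 (without N2 replicate 2) to 1.86 in hpl-2, -1.06 to 0.98 in hpl-2 I158A (0.94 without its replicate 2 and 0.98 without N2 replicate 1) and 0.33 to 2.38 in the triple mutant. All extremes but those of clec-92 in hpl-2 I158A came from leaving out an N2 library. mltn-2 failed the filter, and has no value, when either lin-61 hpl-2 library was left out.

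Counts of calls over the left-out libraries, in the order lin-61 hpl-2, lin-61, hpl-2, hpl-2 I158A and triple mutant, ran 0 to 4, 0 to 2, 0 to 7, 0 to 10 and 0 to 18 for C-type lectins, 0 to 7, 0 to 2, 0 to 3, 0 to 11 and 0 to 9 for molting genes, and 0 to 1, 0 to 1, 0 to 1, 0 to 3 and 0 to 4 for flanking genes. mltn family calls ran 0 to 1 in hpl-2, 0 to 2 in the triple mutant and stayed at 0 elsewhere. The highest counts came from leaving out a triple-mutant library. All genotypes share 1 estimate of the spread per gene in the fit. The median SD between replicates on the log2 scale was 0.622 in the triple mutant and 0.157 to 0.297 in the other genotypes. The part of this spread in the counts of calls was not tested. Little pairing by replicate number was seen: over 15 pairs of genotypes the correlation of replicate differences was -0.08 to 0.16. With the replicate block clec-92 stayed at 5.88 and mltn-2 at 4.95 in lin-61 hpl-2. An alternative chosen after seeing the data, leaving out each N2 library, moved the double mutant's increment over the sum of the single ones to 2.50 and 2.80 for clec-92 and to 6.56 and 18.4 for mltn-2. N2, with 2 reads of each member, limits every fold against it.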
